A study of Homo sapiens with 16 samples.

Results

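The replication fork and homologous recombination genes described here are 48 protein-coding genes, taken by name, out of 60603 genes in the count table. They encode the sliding clamp and its loader (6 genes), the replicative polymerases and primase (9), factors that fire origins and assemble the helicase (9), enzymes that finish Okazaki fragments (2), the single-strand binding complex (3), fork protection and checkpoint proteins (5), homologous recombination and end resection proteins (9), Fanconi anaemia proteins (4) and the mismatch recognition protein MSH6. Each was found once in the table, and all 48 passed the filter on low counts in both cell lines. They were matched by symbol, from a list drawn up with earlier results of these data known.

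RNA was sequenced from 2 established lines of human acute myeloid leukaemia. SKNO-1 carries the RUNX1-RUNX1T1 fusion of the t(8;21) translocation, while U-937 has monocytic features. Cells of each line received DMSO (the solvent), all-trans retinoic acid (ATRA, which activates the retinoic acid receptors), Corin (a hybrid inhibitor of LSD1 and the class I histone deacetylases in the CoREST complex), or the combination, for 24 h and with each compound at 0.1 µM. There were 8 groups of 2 libraries. Both lines grew in RPMI1640 with serum and antibiotics, and SKNO-1 alone also received GM-CSF (10 ng/mL). The labels do not say whether the 2 libraries of a group came from separate cultures, so p-values measure the spread between these libraries, which may be technical. Each value is an average over all cells of a culture.

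During S phase the replicative helicase, built from the MCM ring, CDC45 and the GINS complex, opens the DNA, and primase and the polymerases copy it behind the helicase while the PCNA clamp, loaded by the RFC complex, holds them in place. RPA coats the exposed single strands, ATR and CHEK1 signal when forks stall, and BRCA1, BRCA2 and other recombination proteins rebuild broken forks from the sister chromatid. Many of these genes are transcribed as cells enter S phase, largely under E2F factors, and leukaemia cells that mature along the myeloid path leave the cell cycle. In such bulk samples, fewer cells in S phase and less RNA per cell cannot be told apart.

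Totals ran from 28.4 to 37.8 M estimated counts per library, and the lowest count of any member in any library was 54. The line labels were checked on RUNX1T1, at 108 CPM (counts scaled to library size) in SKNO-1 with DMSO and 0.0157 CPM in U-937, and on HOXA9, at 0 and 55.7 CPM. The genes CD3E, MS4A1, HBB and ALAS2, which mark lymphoid and erythroid cells, were at 0 in the DMSO and combination groups of U-937. The 2 DMSO libraries of SKNO-1 differed more than the other pairs: the SD of their log2 difference over 9500 genes was 0.356, against 0.107 to 0.199 for the other 7 groups, and that difference followed GC content (Pearson's r of 0.812 across genes, which are not independent). Each SKNO-1 comparison with DMSO rests on this pair, and values without each of the 2 libraries are given below.

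The 300 bases around the start of each gene (250 before and 50 after) were read from RefSeq (GRCh38.p14), which matched 43 of the 48 members. Because S-phase genes are known for E2F sites near their start, 5 spellings of such a site were searched on both strands: TTTCCCGC, TTTGGCGC, TTTCGCGC, TTTGGCGG and TTTCCCGG, of which the first and the last share all but the final base. At least 1 of them stood in 16 of 43 member windows (37.2%) and in 1295 of 27305 windows of all genes (4.7%). The letters CCAAT stood in 53.5% of member windows and 35.6% of all, and TTTGAA or TTTAAA, spellings of a cell-cycle homology region, in 9.3% and 24.5%. Neither of these 2 searches overlaps the E2F-type letters. The windows below belong to the 3 members with the largest falls in U-937 with both agents (GINS2, CDC45 and XRCC2), to ATR, with the smallest, and to POLE2, which held 2 matches. They lie at chr16:85688905-85689204 (minus strand), chr22:19479216-19479515 (plus), chr7:152676092-152676391 (minus), chr3:142578684-142578983 (minus) and chr14:49688165-49688464 (minus). Each is printed 5′ to 3′ on the gene's strand, and capitals mark the E2F-type letters.
GINS2: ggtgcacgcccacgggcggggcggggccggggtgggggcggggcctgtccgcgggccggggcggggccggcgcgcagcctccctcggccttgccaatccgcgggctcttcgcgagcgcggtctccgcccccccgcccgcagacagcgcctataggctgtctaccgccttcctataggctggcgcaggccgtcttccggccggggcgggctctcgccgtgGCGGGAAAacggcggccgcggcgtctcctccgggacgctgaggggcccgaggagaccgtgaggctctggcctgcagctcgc
CDC45: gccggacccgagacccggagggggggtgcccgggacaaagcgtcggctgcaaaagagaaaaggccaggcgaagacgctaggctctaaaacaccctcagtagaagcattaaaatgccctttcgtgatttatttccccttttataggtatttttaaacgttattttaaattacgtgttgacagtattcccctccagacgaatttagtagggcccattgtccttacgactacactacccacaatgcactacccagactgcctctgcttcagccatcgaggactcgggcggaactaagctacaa
XRCC2: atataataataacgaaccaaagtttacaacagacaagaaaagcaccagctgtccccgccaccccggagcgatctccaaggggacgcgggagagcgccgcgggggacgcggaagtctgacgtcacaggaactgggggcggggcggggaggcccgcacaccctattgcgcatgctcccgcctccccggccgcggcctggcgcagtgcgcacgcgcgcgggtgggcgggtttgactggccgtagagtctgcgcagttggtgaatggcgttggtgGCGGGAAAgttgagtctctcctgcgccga
ATR: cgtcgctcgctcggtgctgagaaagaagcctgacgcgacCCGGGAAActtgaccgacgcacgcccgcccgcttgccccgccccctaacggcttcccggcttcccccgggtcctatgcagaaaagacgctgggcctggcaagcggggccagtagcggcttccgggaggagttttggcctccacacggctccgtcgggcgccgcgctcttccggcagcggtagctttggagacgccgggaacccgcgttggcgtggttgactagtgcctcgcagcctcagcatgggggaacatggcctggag
POLE2: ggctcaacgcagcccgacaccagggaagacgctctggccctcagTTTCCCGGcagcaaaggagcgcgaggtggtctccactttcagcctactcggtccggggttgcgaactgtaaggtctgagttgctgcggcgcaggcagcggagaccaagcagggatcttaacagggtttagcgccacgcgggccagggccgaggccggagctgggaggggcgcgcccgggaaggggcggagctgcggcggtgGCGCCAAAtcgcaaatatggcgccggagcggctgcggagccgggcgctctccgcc
The GINS2 match began 31 bases before the start and the XRCC2 match 21 bases after it, both as TTTCCCGC on the reverse strand. The CDC45 window held none of the 5 spellings, and held TTTAAA at 101 and 89 bases before the start. The members with the largest and the smallest fall, GINS2 and ATR, both held a match. In U-937 with both agents the median log2 fold change was -2.57 for the 16 members with E2F-type letters and -2.58 for the 27 without. A match is a run of letters, and occupancy of these windows was not measured.

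With both agents in U-937, every member fell. All 48 were lower than with DMSO at an adjusted p under 0.05 (edgeR's quasi-likelihood F test, Benjamini-Hochberg over all genes tested), 45 of them by more than 2-fold, while 65.3% of 17717 genes were called in either direction and 32.2% were called lower (33.1% higher). The median of the members was -2.49 on the log2 scale, which left 17.8% of the DMSO level, and the median of all genes tested was 0.03. Changes ran from -4.70 for GINS2 to -0.71 for ATR. For all 48 members both combination libraries were below both DMSO libraries, which held, in this direction, for 40.1% of all genes. The members held 0.474% and 0.491% of all counts in the DMSO libraries of U-937 and 0.0973% and 0.105% in the combination libraries.

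In SKNO-1 the changes were smaller, by the test of the line difference given below. There 28 members were lower and 1, POLE, was higher than with DMSO, where 46.7% of 17479 genes were called and 22.0% were called lower (24.7% higher). The median of the members was -0.29 and that of all genes 0.05, and no member changed by 2-fold. Both combination libraries were below both DMSO libraries for 31 members (32.1% of all genes) and above them for 3 (37.9%). The members held 0.398% and 0.427% of counts in the DMSO libraries and 0.339% and 0.355% in the combination libraries. The counts that follow lack the share of all genes called in the same fit. Their moves are therefore not read as particular to the members. Without DMSO replicate 1 the counts were 34 lower and 5 higher, without DMSO replicate 2 they were 33 lower and 2 higher, and after removal of the GC trend they were 27 lower and 6 higher.

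**Figure D1:**
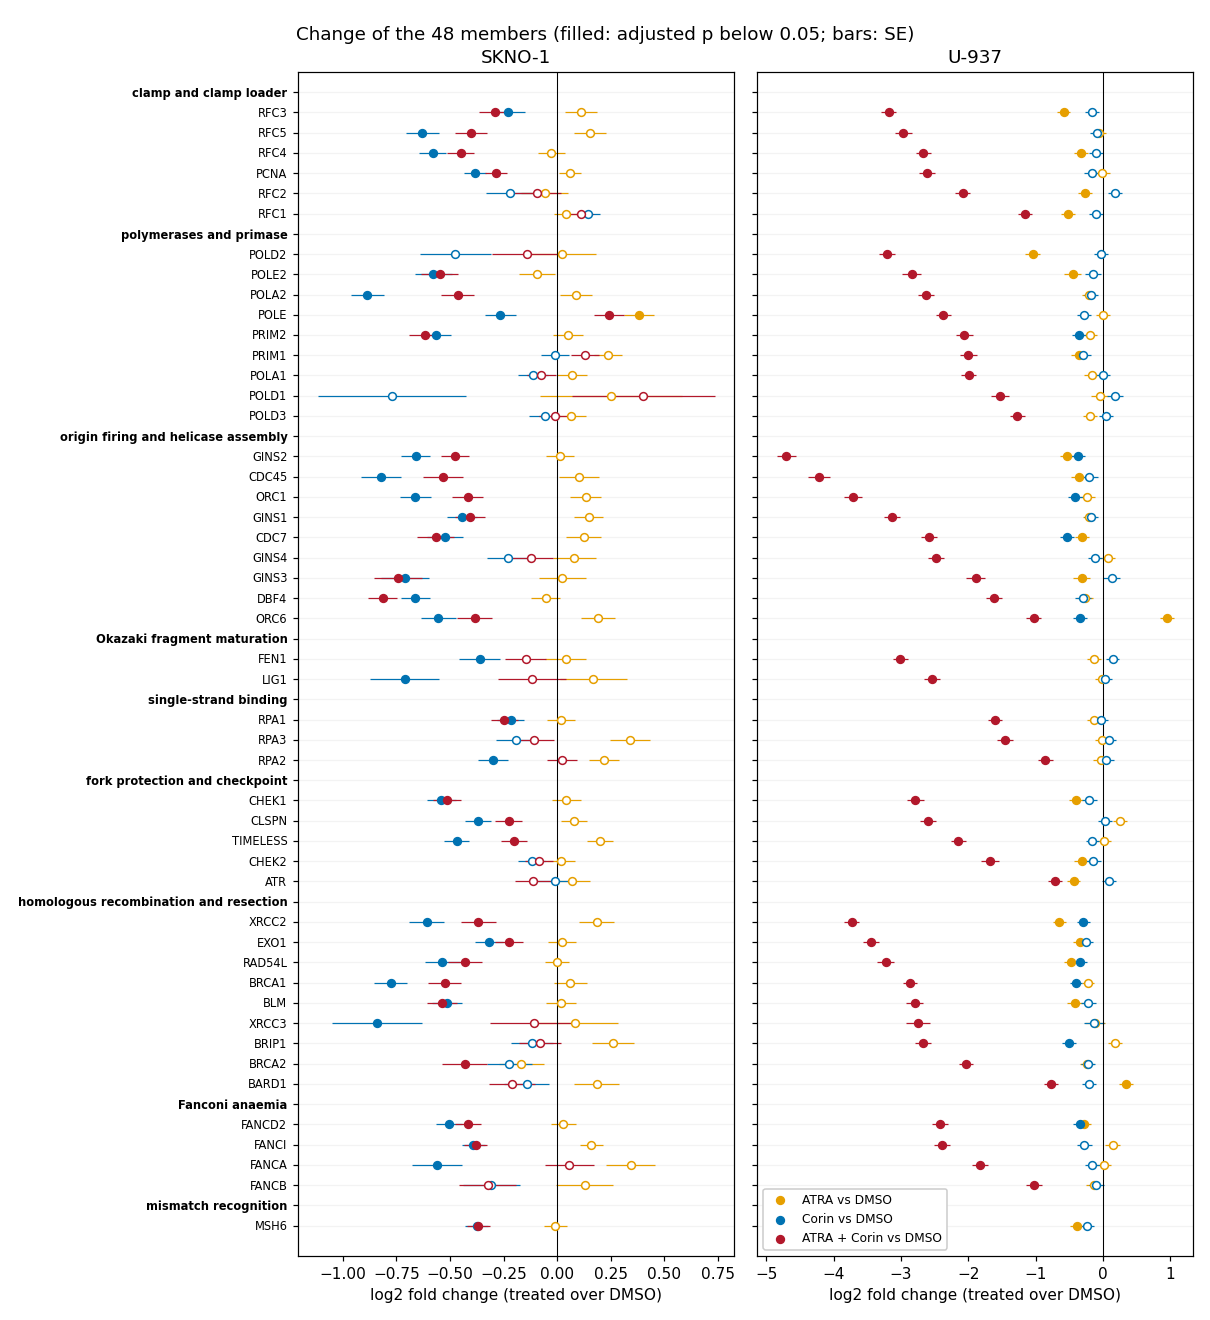
Log2 fold change over DMSO (x axis, different scales in the 2 panels) for each of the 48 members by role, with ATRA, Corin or both agents. Filled points passed an adjusted p of 0.05 and bars are SE. In U-937 the combination points lie between -4.70 and -0.71, all left of zero, while in SKNO-1 they lie between -0.81 and 0.40.

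The clamp and its loader are PCNA, the ring that tethers polymerases, and RFC1 to RFC5, the complex that opens and loads the ring. In U-937, PCNA was at 457 and 491 CPM with DMSO, 458 and 486 with ATRA, 449 and 396 with Corin, and 70.04 and 85.8 with both agents. The combination libraries stood far below the other 6, and the fall was 6.09-fold (log2 -2.61, SE 0.12, adjusted p = 3.55e-15). RFC3 was at 78.1 and 77.6 CPM with DMSO and 8.17 and 9.00 with both agents (log2 -3.18, SE 0.11, adjusted p = 4.31e-17). RFC1, the large subunit, had the smallest change of the group, from 214 and 232 CPM to 92.5 and 108 (log2 -1.15, SE 0.10, adjusted p = 8.37e-10), and its groups did not overlap either. All 6 genes fell in U-937, with a median of -2.64. In SKNO-1, 4 of the 6 fell. RFC4 went from 107 and 108 CPM to 79.1 and 78.0 (log2 -0.45, SE 0.06, adjusted p = 0.000812), and RFC2 stayed within the spread of its DMSO pair, at 56.4 and 45.0 CPM with DMSO and 48.9 and 46.2 with both agents (log2 -0.09, SE 0.11, adjusted p = 0.52). The loader subunits did not keep their proportions in U-937: per length, in the authors' TPM, RFC1 and RFC4 were at 67.7 and 66.1 with DMSO (means of 2 libraries), and RFC1 was at 26.2 and 23.7 and RFC4 at 7.14 and 6.74 in the combination libraries.

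Among the polymerases and primase, POLA1, POLA2, PRIM1 and PRIM2 make the primers, POLD1 to POLD3 belong to the lagging-strand polymerase delta, and POLE and POLE2 to the leading-strand polymerase epsilon. All 9 fell in U-937 with both agents, each by more than 2-fold (median -2.06). POLD2 was at 126 and 125 CPM with DMSO, 59.7 and 61.9 with ATRA, 137 and 108 with Corin, and 13.3 and 14.0 with both agents. It was thus lower with ATRA alone and lower again with both (log2 -3.20 against DMSO, SE 0.12, adjusted p = 9.61e-17). POLD3 changed least, from 75.5 and 81.1 CPM to 29.3 and 35.8 (log2 -1.27, SE 0.11, adjusted p = 2.6e-10). POLE fell in U-937 from 108 and 96.4 CPM to 21.5 and 18.0 (log2 -2.37, SE 0.11, adjusted p = 5.77e-15).

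In SKNO-1 this group split. PRIM2 fell from 47.7 and 51.7 CPM to 32.4 and 32.4 (log2 -0.62, SE 0.07, adjusted p = 0.000312), and POLE2 and POLA2 were lower too. POLE, the catalytic subunit, was at 247 and 216 CPM with DMSO, 295 and 308 with ATRA, 190 and 195 with Corin, and 271 and 277 with both agents. Its ATRA and combination libraries were above, and its Corin libraries below, both DMSO libraries, with log2 changes of 0.38 (adjusted p = 0.0157), 0.24 (adjusted p = 0.0235) and -0.26 (adjusted p = 0.021). With only the 4 libraries compared, the ATRA and Corin calls were lost (edgeR, adjusted p = 0.187 and 0.115). Neither passed in the authors' DESeq2 tables (adjusted p = 0.18 and 0.124). Without ATRA replicate 1 or 2 the ATRA change was log2 0.37 or 0.31. Without Corin replicate 1 or 2 the Corin change was log2 -0.25 or -0.29. The combination call for POLE was lost with DESeq2 (adjusted p = 0.0766), without either combination library (adjusted p = 0.0918 without replicate 1 and 0.135 without replicate 2) and with only the 4 libraries compared (adjusted p = 0.0995). POLD3 did not pass the test, at 58.9 and 65.6 CPM with DMSO and 61.3 and 62.3 with both agents (log2 -0.01, SE 0.07, adjusted p = 0.922). POLD1 was at 31.3 and 12.6 CPM in the 2 DMSO libraries, a spread wider than any of its treatment differences from the DMSO mean, and its SKNO-1 comparisons with DMSO did not pass the test in the main fit. Its fall with Corin passed with DESeq2 (log2 -0.77, adjusted p = 0.0316). In edgeR that fall passed without the low-count filter (adjusted p = 3.86e-08) and with the GC trend removed (log2 -0.43, adjusted p = 0.0191). The POLD1 values of the Corin libraries lay on either side of DMSO replicate 2 and below replicate 1, so the fall rests on replicate 1. Without DMSO replicate 2 the Corin change was log2 -1.30. POLA2 and PRIM1 share 16.8% and 10.9% of their exon bases with another gene on the same strand, so their values are uncertain.

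The 2 largest falls, of GINS2 and CDC45, were among the genes of origin firing and helicase assembly. GINS1 to GINS4 form the GINS complex and CDC45 joins it on the MCM ring, CDC7 and its activator DBF4 form the kinase that starts origins, and ORC1 and ORC6 belong to the origin recognition complex. In U-937, GINS2 was at 51.2 and 53.4 CPM with DMSO, 37.0 and 35.4 with ATRA, 43.1 and 37.8 with Corin, and 2.04 and 1.96 with both agents. Both single agents lowered it slightly, and the combination left 3.84% of the DMSO level, a 26.1-fold fall (log2 -4.70, SE 0.14, adjusted p = 1.37e-18). Its Corin call did not hold without Corin replicate 2 (log2 -0.28), DMSO replicate 1 (-0.40) or DMSO replicate 2 (-0.34). CDC45 was at 39.8 and 38.6 CPM with DMSO and 1.60 and 2.65 with both agents, an 18.7-fold fall (log2 -4.22, SE 0.16, adjusted p = 1.39e-16). ORC1, GINS1, CDC7 and GINS4 fell by 3.72, 3.13, 2.58 and 2.48 on the log2 scale. The 4 subunits of the GINS complex thus changed by unequal amounts: per length, in the authors' TPM, GINS2 stood at 23.9 and GINS3 at 10.1 with DMSO (means of 2 libraries), and GINS2 at 0.68 and 0.52 and GINS3 at 2.07 and 1.85 in the combination libraries, so their order turned.

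ORC6 moved in opposite directions with ATRA and with both agents. In U-937 it was at 37.2 and 40.3 CPM with DMSO, 76.6 and 73.0 with ATRA, 30.9 and 30.6 with Corin, and 20.1 and 17.9 with both agents. ORC6 was highest in both ATRA libraries (log2 0.95, SE 0.10, adjusted p = 6.91e-08) and lowest in both combination libraries (log2 -1.03, SE 0.11, adjusted p = 9.76e-09), and no 2 groups overlapped. In SKNO-1, 8 of the 9 genes of this group were lower with both agents (median -0.48). DBF4 was the largest, from 94.5 and 104 CPM to 56.0 and 57.0 (log2 -0.81, SE 0.07, adjusted p = 6.72e-05). GINS4 was the member that did not pass, at 22.4 and 20.04 CPM with DMSO and 18.8 and 20.2 with both agents (log2 -0.12, SE 0.10, adjusted p = 0.363). How the counting used strand is not stated, and GINS3 and GINS4 share 10.9% and 21.0% of their exon bases with a gene on the opposite strand.

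FEN1, the flap nuclease, and LIG1, the ligase, join Okazaki fragments. In U-937 FEN1 was at 86.7 and 97.3 CPM with DMSO, 81.6 and 86.4 with ATRA, 108 and 95.2 with Corin, and 11.5 and 11.4 with both agents (log2 -3.01, SE 0.11, adjusted p = 1.12e-16). LIG1 was at 64.8 and 58.1 CPM with DMSO and 10.2 and 10.96 with both agents (log2 -2.54, SE 0.11, adjusted p = 2.9e-15). Neither passed the test with a single agent in U-937. In SKNO-1 both were called lower with Corin alone, LIG1 with log2 -0.71 and FEN1 with log2 -0.36. Both Corin calls were lost with only the libraries compared (edgeR, adjusted p = 0.0518 for LIG1 and 0.0965 for FEN1). Without Corin replicate 1 or 2, LIG1 was at log2 -0.76 or -0.67 and FEN1 at -0.42 or -0.31. Neither passed with both agents: FEN1 was at 138 and 112 CPM with DMSO and 114 and 112 with both (log2 -0.15, SE 0.09, adjusted p = 0.241), and LIG1 at 47.5 and 32.6 and at 37.2 and 36.6 (log2 -0.12, SE 0.16, adjusted p = 0.57). The combination libraries lay between the 2 DMSO libraries for LIG1.

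The single-strand binding genes RPA1, RPA2 and RPA3 all fell in U-937 (median -1.45). RPA1, the large subunit that grips DNA, was at 156 and 162 CPM with DMSO and 48.4 and 56.8 with both agents (log2 -1.60, SE 0.11, adjusted p = 3.88e-12). RPA2, the subunit phosphorylated at stalled forks, was at 98.7 and 102 CPM and at 49.5 and 61.4 (log2 -0.86, SE 0.11, adjusted p = 3.67e-07), and its groups did not overlap. In SKNO-1 RPA1 was lower, from 90.0 and 89.0 CPM to 78.3 and 72.6 (log2 -0.25, SE 0.06, adjusted p = 0.0143). RPA2 in SKNO-1 did not pass, at 92.9 and 82.3 CPM with DMSO and 87.7 and 90.2 with both agents (log2 0.02, SE 0.07, adjusted p = 0.814).

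In the fork protection and checkpoint group, TIMELESS and CLSPN (Claspin) travel with the fork, ATR is the kinase that senses single-stranded DNA, and CHEK1 and CHEK2 are the kinases that carry the signal on. CHEK1 in U-937 went from 60.1 and 66.6 CPM with DMSO to 8.11 and 10.3 with both agents (log2 -2.79, SE 0.12, adjusted p = 1.93e-15). ATR was at 103 and 113 CPM with DMSO, 72.4 and 86.6 with ATRA, 111 and 118 with Corin, and 64.5 and 67.3 with both agents (log2 -0.71, SE 0.10, adjusted p = 2.12e-06), so the kinase upstream kept 61.3% of its DMSO level and CHEK1 14.5%. ATR was lower with ATRA alone as well (log2 -0.44, adjusted p = 0.00134). In SKNO-1 CHEK1 went from 106 and 116 CPM to 78.7 and 76.8 (log2 -0.51, SE 0.07, adjusted p = 0.00058), and TIMELESS and CLSPN were lower too. CHEK1 shares 13.4% of its exon bases with a gene on the opposite strand. CHEK2 did not pass there, at 60.4 and 61.1 CPM with DMSO and 55.1 and 59.5 with both agents (log2 -0.08, SE 0.07, adjusted p = 0.334).

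The homologous recombination and resection group holds BRCA1 with its partner BARD1, BRCA2, the helicases BRIP1 and BLM, the nuclease EXO1, the translocase RAD54L and the recombination mediators XRCC2 and XRCC3. All 9 fell in U-937 (median -2.80), 8 of them by more than 2-fold. XRCC2 was at 74.8 and 75.5 CPM with DMSO, 48.7 and 47.4 with ATRA, 61.2 and 61.5 with Corin, and 5.56 and 5.74 with both agents, each group apart from the next (log2 -3.73 for both agents, SE 0.12, adjusted p = 2.95e-18). EXO1 and RAD54L fell by 3.44 and 3.23 on the log2 scale. BRCA1 was at 145 and 153 CPM with DMSO and 19.5 and 21.4 with both agents (log2 -2.86, SE 0.10, adjusted p = 5.57e-17). BARD1, with which BRCA1 forms a heterodimer, was at 64.0 and 68.5 CPM with DMSO, 84.1 and 84.2 with ATRA, 58.1 and 56.7 with Corin, and 36.5 and 41.2 with both agents. It was higher with ATRA (log2 0.34, SE 0.10, adjusted p = 0.00653) and lower with both agents (log2 -0.77, SE 0.10, adjusted p = 3.7e-07). The ATRA call of BARD1 was lost without ATRA replicate 1, ATRA replicate 2 or DMSO replicate 1, with adjusted p of 0.0524, 0.0678 and 0.0806.

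In SKNO-1, 6 of the 9 recombination genes were lower with both agents (median -0.37). BLM went from 124 and 133 CPM to 91.6 and 85.7 (log2 -0.54, SE 0.07, adjusted p = 0.000597), and BRCA1 from 129 and 148 CPM to 93.3 and 99.3 (log2 -0.53, SE 0.08, adjusted p = 0.001). BRIP1 did not pass, at 73.5 and 88.9 CPM with DMSO and 76.2 and 77.4 with both agents (log2 -0.08, SE 0.10, adjusted p = 0.531). XRCC3 shares 76.7% of its exon bases with KLC1 on the opposite strand, and RAD54L 19.9% with LRRC41, so their values are uncertain.

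The Fanconi anaemia genes are FANCA and FANCB of the core complex and FANCD2 and FANCI, the pair that the core complex tags with ubiquitin at crosslinks. FANCD2 in U-937 was at 209 and 220 CPM with DMSO and 34.9 and 45.2 with both agents (log2 -2.42, SE 0.11, adjusted p = 6.45e-15), and its partner FANCI fell by 2.39 on the log2 scale. FANCB fell least, from 46.2 and 49.3 CPM to 20.6 and 26.5 (log2 -1.02, SE 0.12, adjusted p = 7.22e-08). In SKNO-1 FANCD2 went from 146 and 159 CPM to 114 and 114 (log2 -0.42, SE 0.06, adjusted p = 0.00092), and FANCI fell by 0.38. FANCA in SKNO-1 was at 42.9 and 34.1 CPM with DMSO and 37.7 and 42.4 with both agents (log2 0.06, SE 0.11, adjusted p = 0.714), and these groups overlapped. FANCA shares 19.6% of its exon bases with ZNF276 on the opposite strand.

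MSH6, which recognises mismatches behind the fork, was at 297 and 323 CPM with DMSO and 50.7 and 58.9 with both agents in U-937 (log2 -2.50, SE 0.11, adjusted p = 1.54e-15). In SKNO-1 it was at 274 and 280 CPM and at 208 and 221 (log2 -0.37, SE 0.05, adjusted p = 0.00103). Both lines showed separate groups. MSH6 shares 22.7% of its exon bases with FBXO11 on the opposite strand.

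**Figure D2:**
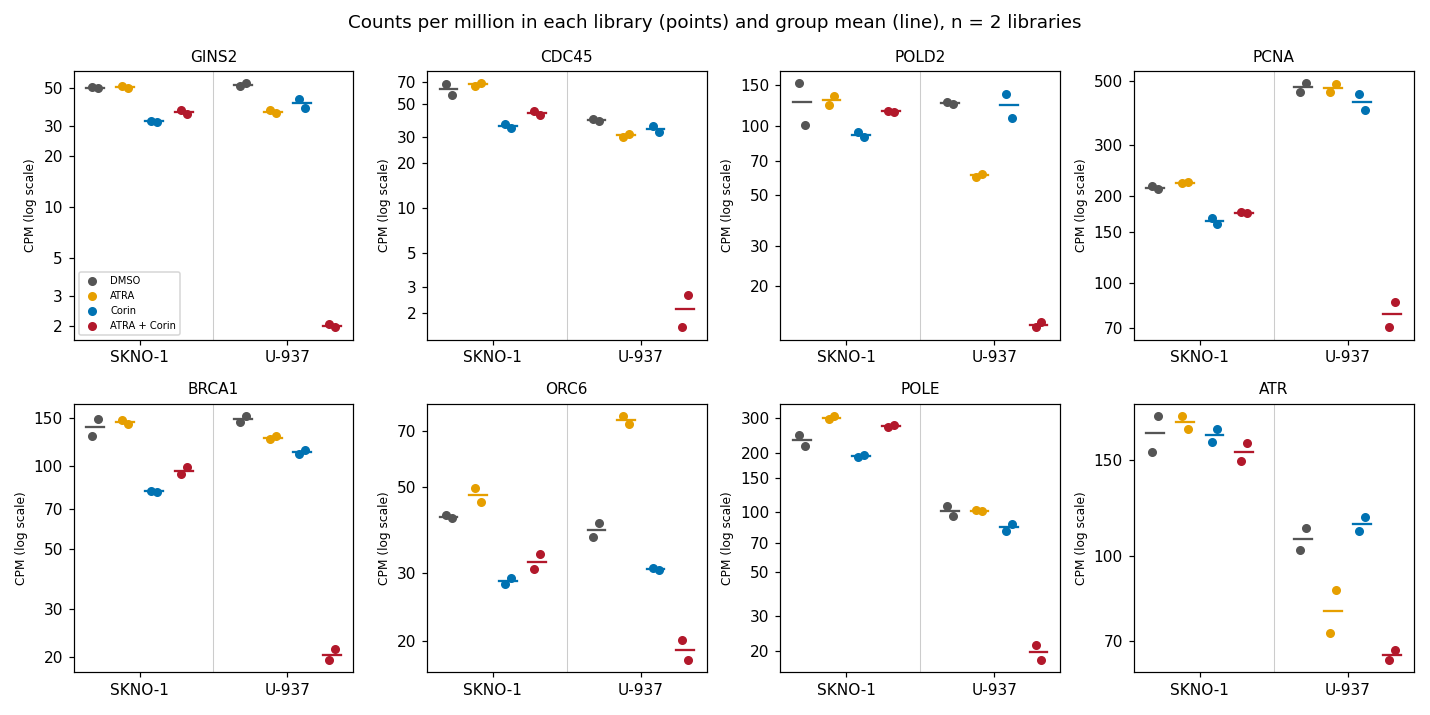
CPM of 8 members (y axis, log scale, its range differs between panels) in each of the 16 libraries. Points are libraries and lines are group means of 2 libraries. GINS2, CDC45, POLD2, PCNA, BRCA1 and POLE are lowest in the combination group of U-937, ORC6 is highest with ATRA in U-937, and ATR has the smallest fall in U-937 with both agents.

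With ATRA alone, members fell more often than they rose in U-937, and POLE alone passed the test in SKNO-1. ATRA in U-937 changed 22 members, 20 lower and 2 higher (ORC6 and BARD1), where 41.8% of all genes were called (20.1% lower and 21.7% higher). Both ATRA libraries were below both DMSO libraries for 32 members (35.4% of all genes) and above them for 6 (37.1%). The member median was -0.21 against 0.02 for all genes, and POLD2 was the single member past 2-fold (2.06-fold lower). After POLD2 came XRCC2 with log2 -0.65, RFC3 with -0.58 and GINS2 with -0.53. ATRA alone in SKNO-1 changed 1 member, POLE, where 6.76% of genes were called (3.79% lower and 2.96% higher). Both ATRA libraries were above both DMSO libraries for 17 members (21.5% of all genes) and below them for 2 (19.2%). There the member median was 0.07 against 0.01 for all genes, 41 of 48 members had a positive sign, and 9 had an unadjusted p under 0.05. The shares of all genes are not set beside the last 2 counts, so neither is read as particular to the members. The SKNO-1 count fell without either ATRA library and rose without either DMSO library. As the share of all genes called in those fits is not given, these moves are not read as results about the members. For example, POLD1 was at log2 1.00 without DMSO replicate 1 and at -0.30 without replicate 2, while PRIM1 was at 0.19 and 0.20.

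Corin alone in SKNO-1 lowered 33 members and raised none, where 37.9% of genes were called (17.3% lower and 20.5% higher). Both Corin libraries were below both DMSO libraries for 41 members (30.7% of all genes) and above them for 1 (34.3%). The member median was -0.46 against 0.00 for all genes. POLA2 was at 46.2 and 41.9 CPM with DMSO and 23.5 and 24.2 with Corin, the largest fall (log2 -0.89, SE 0.08, adjusted p = 0.000109). CDC45 fell by 0.82, BRCA1 by 0.78 and GINS3 by 0.71 on the log2 scale. RFC1, ATR and PRIM1 were among the 15 members that did not pass, with log2 values of 0.14, -0.01 and -0.01. Corin alone in U-937 lowered 10 members and raised none, where 12.9% of genes were called (4.40% lower and 8.55% higher). Both Corin libraries were below both DMSO libraries for 31 members (25.4% of all genes) and above them for 2 (27.0%). The member median was -0.17 against 0 for all genes, and CDC7 (log2 -0.53, SE 0.10, adjusted p = 0.000819) and BRIP1 (log2 -0.50, SE 0.10, adjusted p = 0.0016) fell most. That U-937 count fell without Corin replicate 2 and without either DMSO library. These falls are not read as results about the members, as the share of all genes called in those fits is not given.

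Adding the second agent was then compared with each agent alone. In U-937 all 48 members were lower with both agents than with ATRA alone, where 47.4% of genes were called (24.8% lower and 22.5% higher), with a member median of -2.31. All 48 were lower than with Corin alone too, where 60.5% of genes were called (30.6% lower and 29.9% higher), with a median of -2.22. The call of ATR against ATRA (log2 -0.27) was lost in 7 alternatives, among them median-ratio size factors (adjusted p = 0.0563) and the fit without ATRA replicate 2 (log2 -0.13, adjusted p = 0.494). In SKNO-1, 31 members were lower with both agents than with ATRA alone and none was higher, where 44.8% of genes were called (21.8% lower and 23.0% higher). Against Corin alone, 36 of 48 members were above the Corin level, and the share of all genes above it is not set beside this. The test was passed by 5 members, POLE, POLA2, RPA2, TIMELESS and FANCA, all higher. Of all genes 10.4% were called (5.60% lower and 4.82% higher). The number of members called is near that share, and neither count is read as particular to the members. POLD1 had the highest value, at 13.5 and 12.2 CPM with Corin and 27.4 and 30.6 with both agents, and did not pass (log2 1.17, SE 0.34, adjusted p = 0.0672). POLD1 passed with DESeq2 (adjusted p = 0.00169), without the low-count filter (5.02e-17), with the GC trend removed (log2 0.51, adjusted p = 0.021) and with only the libraries compared (2.39e-11). LIG1 (log2 0.59, adjusted p = 0.0552) and XRCC3 (log2 0.73, adjusted p = 0.0643) also passed in these 4 alternatives, while TIMELESS was lost with DESeq2 (adjusted p = 0.0621) and, with RPA2, under library totals alone (0.0878 and 0.0526). POLA2 was at 23.5 and 24.2 CPM with Corin and 32.0 and 31.8 with both agents (log2 0.42, SE 0.08, adjusted p = 0.014). That count of 5 fell when any 1 of the 4 libraries compared was left out. It was 24 (22 higher) when only those 4 libraries were fitted. Shares of all genes called in these fits are not set beside the counts, so the moves are not read as results about the members. The spread in the 8-library fit includes the DMSO pair. The comparisons of a line share libraries, those with DMSO all using the same pair, so their agreement is not independent.

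For each member the change with both agents was set against the sum of its changes with ATRA and with Corin, as log2 values. In U-937 the sums ran from -1.08 to 0.61 with a median of -0.36, while the observed changes ran from -4.70 to -0.71, and all 48 were below their sum. The difference passed the test for 47 members, all lower, where 23.4% of genes were called (15.3% lower and 8.09% higher). For GINS2 the observed change lay 3.80 below the sum (SE 0.18, adjusted p = 5.29e-13), and for CDC45 it lay 3.67 below (SE 0.20, adjusted p = 4.21e-12). FEN1 had a sum near zero, 0.01, and an observed value of -3.01. ATR was the member that did not pass (log2 -0.36, SE 0.14, adjusted p = 0.0755), and it passed with library totals alone (adjusted p = 0.0305), with the GC trend removed (adjusted p = 0.0362) and without ATRA replicate 1 (adjusted p = 0.0452). In SKNO-1, 0 members passed edgeR's test of this difference, where 0.463% of genes were called (0.149% lower and 0.315% higher). There 1 member had an unadjusted p under 0.05, DESeq2 called 0, and 21 of 48 members lay below their sum. The SKNO-1 count was higher when either DMSO library was left out. The share of all genes called in those fits is not set beside it, so this move is not read as a result about the members.

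**Figure D3:**
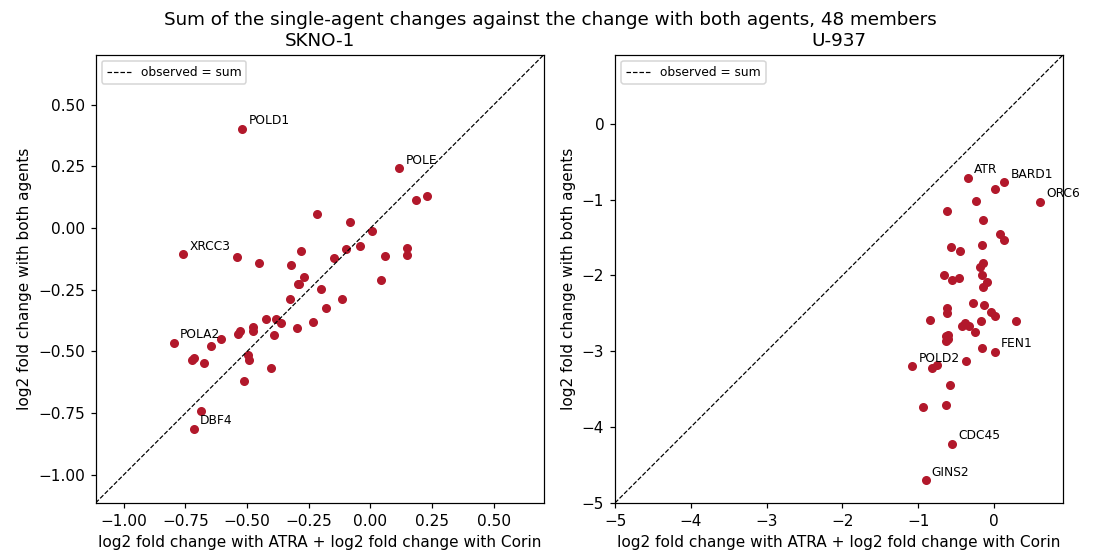
Sum of the log2 fold changes with ATRA and with Corin (x axis) against the log2 fold change with both agents (y axis), 1 point per member, on different scales in the 2 panels. The dashed line marks equality. In U-937 all 48 points are below the line, and in SKNO-1 21 of 48 are.

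The difference between the lines was tested in a fit of all 16 libraries. With both agents all 48 members fell further in U-937 than in SKNO-1, where 40.6% of 19872 genes were called (22.7% lower and 17.9% higher), and the median difference was -2.11 (U-937 minus SKNO-1). It ran from -4.18 for GINS2 (SE 0.15, adjusted p = 2.17e-13) and -3.65 for CDC45 (SE 0.20, adjusted p = 4.44e-11) to -0.52 for BARD1 (SE 0.15, adjusted p = 0.0092). Of the 48 members, 28 were called lower in both lines and the other 20 in U-937 alone. With ATRA, 9 members differed, where 19.4% of genes were called (8.81% lower and 10.6% higher): POLD2 (-1.03) and XRCC2 (-0.79) had the lowest differences, and ORC6 (0.80) was the 1 member with a higher value in U-937. With Corin, 7 members differed, where 12.8% of genes were called (7.49% lower and 5.28% higher), all with higher values in U-937, led by GINS3 (0.84, adjusted p = 0.00273) and LIG1 (0.74, adjusted p = 0.00937). The LIG1 difference did not pass with only the libraries compared (edgeR, log2 0.75, adjusted p = 0.0646).

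Before treatment the lines were not at the same level. With DMSO, 18 members were lower and 16 higher in U-937 than in SKNO-1, where 64.8% of genes were called (33.1% lower and 31.7% higher). The split was 13 lower and 22 higher with library totals alone and 17 lower and 24 higher with the GC trend removed. Shares of all genes called in those fits are not given, so the moves are not read as particular to the members. POLE was 2.47-fold lower in U-937 (log2 -1.30, SE 0.09, adjusted p = 3.11e-10) and RFC4 2.12-fold lower. PCNA was higher in U-937 (log2 1.03, SE 0.10, adjusted p = 1.71e-08), as were BARD1 (1.03) and POLA1 (0.98). GINS2, which fell most with both agents in U-937, differed by -0.07 (adjusted p = 0.531). Per length, in the authors' TPM, PCNA was the highest member in every group, at 397 (SD 29.2, n = 2) in U-937 with DMSO and 156 (SD 37.7, n = 2) in SKNO-1 with DMSO. The lowest was GINS3 (10.1) in U-937 with DMSO, and in U-937 with both agents it was GINS2 (0.60).

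The GC-linked difference between the SKNO-1 DMSO libraries reached the GC-rich members most. Log2 of replicate 1 over replicate 2 was highest for POLD1, whose transcripts are 64.9% GC, and lowest for BRCA2, at 36.2% GC, and across the 48 members Pearson's r with GC came to 0.887 for the SKNO-1 pair and 0.600 for the U-937 pair (a description across genes of 1 pair of libraries). XRCC3, POLD2, LIG1, FANCA and FEN1 followed POLD1, with replicate 1 above replicate 2. Their overlaps with the treated libraries in SKNO-1 come with this spread, and its part in them was not tested. With Corin against DMSO in SKNO-1, the log2 change of POLD2, for example, was -0.17 without DMSO replicate 1 and -0.76 without replicate 2.

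**Figure D4:**
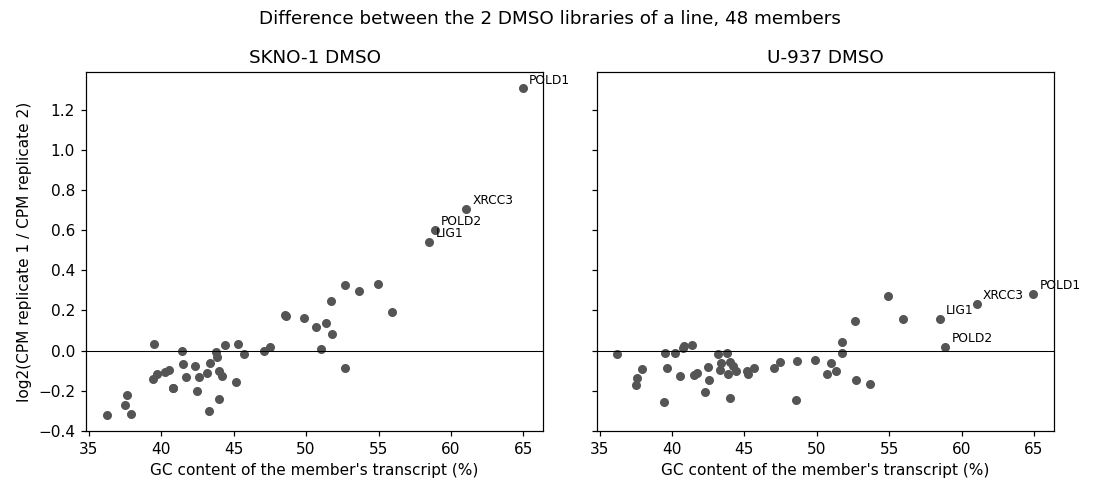
GC content of each member's transcripts in percent (x axis) against the log2 ratio of the 2 DMSO libraries of a line (y axis), 1 point per member. In SKNO-1 the points climb from BRCA2 at 36.2% GC to POLD1 at 64.9% GC, and in U-937 the range is narrower.

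Other genes of the same processes, on lists drawn up with earlier results of these data known, were read beside the members. Of all genes tested, 32.2% were called lower and 33.1% higher in U-937 with both agents. In SKNO-1 these shares were 22.0% and 24.7%. Of 18 other fork genes, 15 fell and 1 rose in U-937 with both agents (median -2.24), and 11 fell and 1 rose in SKNO-1 (median -0.32). DSCC1, part of an alternative clamp loader, went from 32.1 CPM (SD 3.82, n = 2) to 2.06 (SD 0.19, n = 2) in U-937 (log2 -3.96), and CHAF1B, a histone chaperone of the fork, fell by 3.86. The gene that rose was the same in both lines: POLD4, the smallest subunit of polymerase delta, went from 4.97 CPM (SD 0.17, n = 2) to 27.99 (SD 0.13, n = 2) in U-937 (log2 2.49, SE 0.14, adjusted p = 1.88e-13) and from 5.85 CPM (SD 1.79, n = 2) to 14.6 (SD 0.88, n = 2) in SKNO-1 (log2 1.32, SE 0.20, adjusted p = 0.00123). ATRA alone raised POLD4 in U-937 (log2 1.48, adjusted p = 1.12e-08), and with Corin alone it did not pass there (log2 0.18, adjusted p = 0.501). POLE4, the smallest subunit of polymerase epsilon, fell in SKNO-1 (log2 -0.84) and was at log2 0.08 (adjusted p = 0.62) in U-937.

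Of 25 other recombination and crosslink repair genes, 22 fell and 2 rose in U-937 (median -1.44) and 13 fell and 2 rose in SKNO-1 (median -0.26). RAD54B, related to the translocase RAD54L, fell by 3.43 in U-937. RAD51B rose in both lines (log2 0.43 in U-937 and 0.61 in SKNO-1), and NBN, of the complex that detects broken ends, fell by 0.72 in SKNO-1. Of 8 other checkpoint genes, 4 fell and 1 rose in U-937 and 4 fell in SKNO-1. CDC25A, the phosphatase that releases S-phase kinases, fell by 3.91 in U-937 and by 0.81 in SKNO-1, and WEE1, the kinase that opposes it, fell by 1.80 in U-937. HUS1, of the checkpoint clamp, rose in U-937 (log2 0.35) and fell in SKNO-1 (log2 -0.89). Of 6 other mismatch repair genes, 4 fell in U-937 and 3 in SKNO-1. Beside these lists, 32.2% of all genes were called lower in U-937 (33.1% higher) and 22.0% in SKNO-1 (24.7% higher).

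Of 10 end joining genes, whose pathway needs no sister chromatid, 6 fell and 2 rose in U-937, with a median of -0.45, and in SKNO-1 6 fell, with a median of -0.29. In either direction 65.3% of all genes were called in U-937 (32.2% lower) and 46.7% in SKNO-1 (22.0% lower). PRKDC, the catalytic subunit of the DNA-dependent protein kinase, fell by 2.34 in U-937 and RIF1 by 1.41. NHEJ1 fell by 0.89 and XRCC5, a Ku subunit, by 0.53 in SKNO-1. Whether one list changed more than another was not tested.

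Myeloid marker genes moved in the same libraries. The summed level of 8 such genes in U-937 was 705 and 727 CPM with DMSO, 1050 and 1090 with ATRA, 2430 and 2830 with Corin, and 3550 and 3810 with both agents. LYZ (lysozyme) was at 230 CPM of that with DMSO and 2666 with both agents. With both agents 33.1% of all genes tested were called higher in U-937 and 24.7% in SKNO-1. Of the 7 marker genes tested in U-937, 6 rose with both agents and CEBPA, a myeloid transcription factor, fell (log2 -0.36, adjusted p = 0.00415). In SKNO-1 the sum was 3040 to 4090 CPM with DMSO, 3910 to 4240 with ATRA, 2430 to 2580 with Corin and 3110 to 3190 with both agents, and MPO (myeloperoxidase) was at 3136 CPM of it with DMSO and 2414 with both agents (adjusted p = 0.0513). Beneath that sum, 3 of 8 genes rose in SKNO-1 with both agents: LYZ from 61.9 to 382 CPM (log2 2.63, adjusted p = 3.86e-07), CSF1R, the receptor of macrophage colony-stimulating factor, from 0.33 to 10.4 (log2 4.96, adjusted p = 2.06e-05), and CEBPA (log2 1.58, adjusted p = 0.000176). CD33 and PTPRC fell there, by 0.26 and 0.32 on the log2 scale. A list of 9 lymphoid, erythroid and stromal genes rose in U-937 from 61.0 and 66.7 CPM to 270 and 309, with 5 of its genes at 0 with both agents, and PECAM1, which myeloid cells also express, was at 285 CPM of that. In SKNO-1 that list went from 7.55 and 8.69 CPM to 23.4 and 25.5, with 4 of its genes at 0. The part of these changes in the members' levels was not tested.

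In the authors' deposited tables of their own DESeq2 comparisons, 48 members passed an adjusted p of 0.05 in U-937 with both agents, all lower, and 23 in SKNO-1, all lower. The authors' deposited tables held 26 and 8 members past that threshold with ATRA and Corin in U-937, and 0 and 27 in SKNO-1. The share of all genes past it in those comparisons was not computed. These counts are therefore not read as particular to the members.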

How the data were processed

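Total RNA was sequenced in 16 libraries with a stranded total RNA kit, per the labels' protocols, which name paired-end reads of 100 bp. The authors used Trimmomatic, STAR, RSEM and DESeq2 with hg38, per the submitters' processing notes, and versions, annotation release and use of strand are not given in the sources used here. The deposited values are RSEM expected counts per gene and TPM. RSEM divides reads that fit several genes, so 20.4% of positive counts were not whole, and members with near-identical copies or overlapping genes are uncertain. Counts given to pseudogenes named after a member were at most 0.86% of that member's counts. The authors' deposited comparison tables give log2 fold changes and adjusted p-values.

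Expected counts were rounded, genes were kept by filterByExpr and libraries were scaled by TMM (edgeR 4.0.16, R 4.3.3). Quasi-likelihood models with robust dispersions were fitted to the 8 libraries of each line (4 residual degrees of freedom) and to all 16 (8 residual degrees of freedom). Adjusted p-values are Benjamini-Hochberg values over all genes tested, and genes under 0.05 are called. The common biological coefficient of variation came to 0.107 for SKNO-1 and 0.0945 for U-937. CPM are counts scaled to the TMM-adjusted library size, and SE are on the log2 scale. GC content came from GENCODE 44 transcripts (hg38). ERCC spike-ins were added per the labels' protocols, but the deposited counts hold 0 spike-in entries. Scaling to them could therefore not be run from these counts, and RNA per cell was not measured.

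The members and the lists were chosen with earlier results of these data known. Library values are given, per role and line, for the members with the largest and the smallest change with both agents, for members called against the majority and for those leading each test of additivity or line difference (2 in each direction), and of each related list up to 2 genes per line. Other members named were chosen after their values were seen. Alternatives were median-ratio size factors, library totals, DESeq2 1.42.0, no filter, a replicate block, GC trend removal (loess, span 0.3) alone and with the block, only the libraries compared, and each library left out. Some genes that this rule names are not reported here.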

Additional observations from a re-analysis of the deposited data

Results flagged for a closer look

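Responses that differed between the lines by the interaction test of the 16-library fit (edgeR, adjusted p under 0.05) are given here as U-937 minus SKNO-1 on the log2 scale. With both agents 48 members differed, where 40.6% of all genes were called, and GINS2 (-4.18) and CDC45 (-3.65) differed most. With ATRA 9 members differed, where 19.4% of all genes were called. POLD2 (-1.03) and XRCC2 (-0.79) had lower and ORC6 (0.80) higher values in U-937. With Corin 7 members differed, where 12.8% of all genes were called, and GINS3 (0.84) and LIG1 (0.74) had the largest values. The ATRA and Corin counts are near those shares and are not read as particular to the members. The lines also differed in GM-CSF, so line and medium cannot be told apart. Groups of 2 libraries are too small for a test of single outlying samples.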

How the results depend on the processing

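In U-937 with both agents the count of lower members was 48 against DMSO and against Corin, 47 to 48 against ATRA, 46 to 48 for the departure from additivity and 46 to 48 for the difference from SKNO-1 under the alternatives that were run, each library left out included. Counts of members called moved by more than 1.5 times as follows. With the GC trend removed, the SKNO-1 counts were 9 for ATRA (main 1), 23 for both agents against Corin (main 5) and 1 for additivity (main 0), and the line differences 24 for ATRA (main 9) and 16 for Corin (main 7). With the GC trend removed and the replicate block together these were 9, 22, 1, 22 and 15. With the replicate block alone, both agents against Corin in SKNO-1 gave 3 and Corin in U-937 gave 5 (main 10). No low-count filter gave 11 and 2 for both agents against Corin and for additivity in SKNO-1. Only the libraries compared gave 0 for ATRA and 24 for both agents against Corin in SKNO-1 and 4 for the line difference with Corin. For the line difference with ATRA, library totals gave 22 and DESeq2 15. Leaving out each library in turn gave 0 to 13 for ATRA in SKNO-1, 0 to 1 for both agents against Corin, 0 to 17 for additivity in SKNO-1, 10 to 15 for ATRA in U-937 (10 without ATRA replicate 1, 12 without DMSO replicate 2), 1 to 7 for Corin in U-937, 7 to 19 for the line difference with ATRA (19 and 18 without SKNO-1 DMSO replicate 1 and 2) and 3 to 17 for that with Corin (17 without SKNO-1 DMSO replicate 2, 3 without SKNO-1 Corin replicate 2, 4 without U-937 Corin replicate 1). A lone library left in a group is assumed to vary like the others. The share of all genes called is not set beside the counts of these alternatives. A moved count is therefore not read as a result about the members.

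The labels give replicate numbers 1 and 2 and do not say that a number marks a shared culture or day. Replicate differences of 2 groups correlated at -0.496 to 0.226 in SKNO-1 and -0.461 to 0.421 in U-937, so the numbers were not taken to pair the samples, and the replicate block changed no other count by over 1.5 times. RBBP8, a recombination gene outside the 48, turned from -0.21 to 0.0094 in SKNO-1 with both agents when the GC trend was removed and to 0.0102 with the block as well. The cause of these moves was not tested. With 2 libraries a group, small log2 changes in SKNO-1 are near the limit of what the spread resolves.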
